A study of Homo sapiens with 4 samples.

Results

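Most of the proteins that work inside mitochondria are made in the cytosol and imported, and this report concerns the 43 nuclear genes that encode much of that machinery: the translocases of the outer and inner mitochondrial membrane, the small chaperones between the membranes, the folding chaperones of the matrix, and the peptidases and proteases that trim or destroy imported proteins. The genes were chosen by name, and each was matched to 1 row of a deposited table of 60595 genes. They were measured by RNA sequencing in cells of the human melanoma line A375, genotype WT, grown in DMEM with serum. One group of 2 libraries came from cells given DMSO, the solvent control, and the other group of 2 libraries from cells given Paroxetine Hydrochloride, a serotonin reuptake inhibitor. The dose, the time of exposure and whether libraries came from separate cultures were not given in the sources used here, so the p-values cover only the variation among these libraries, which may be technical.

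Precursor proteins enter mitochondria through the TOM complex of the outer membrane, whose pore is TOMM40 and whose receptors include TOMM20, TOMM22 and TOMM70. They then pass to TIMM23 in the inner membrane if they carry a cleavable presequence, to TIMM22 if they are carrier proteins, or to the SAM complex if they are barrels of the outer membrane. The motor around mitochondrial HSP70 (HSPA9) pulls precursors into the matrix, the peptidase formed by PMPCA and PMPCB removes the presequence, and HSP60 (HSPD1) with HSP10 (HSPE1) folds the product. Proteases such as LONP1 and CLPP degrade what does not fold, and several of these chaperone and protease genes are known targets of stress signals from mitochondria.

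The promoters of some of these genes are shown first, as a description of their sequence. The windows run from 250 bases before to 50 bases after the gene start in RefSeq (GRCh38.p14), and 38 of the 43 genes had an entry. TOMM5, TIMM8B, GRPEL1, CLPP and YME1L1 had none. Capitals mark matches to 3 motifs on either strand: the E-box CACGTG, bound by MYC and related factors, the consensus of nuclear respiratory factor 1, and the CCAAT box CCAAT. HSPE1 and HSPD1 lie head to head on chromosome 2, so that their windows share 204 bases, and the first line shows the HSPE1 window on its own strand. TOMM40 is shown as the pore gene, and TIMM10 and TIMM9 as partners of which the first was called lower and the other was not called.
HSPE1, chr2:197500129-197500428, plus strand: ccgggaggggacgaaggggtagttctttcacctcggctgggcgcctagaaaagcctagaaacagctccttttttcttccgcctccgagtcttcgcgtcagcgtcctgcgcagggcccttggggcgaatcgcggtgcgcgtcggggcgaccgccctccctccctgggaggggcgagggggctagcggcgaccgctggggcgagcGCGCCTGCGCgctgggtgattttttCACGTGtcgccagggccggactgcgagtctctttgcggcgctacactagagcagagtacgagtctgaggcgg
TOMM40, chr19:44891004-44891303, plus strand: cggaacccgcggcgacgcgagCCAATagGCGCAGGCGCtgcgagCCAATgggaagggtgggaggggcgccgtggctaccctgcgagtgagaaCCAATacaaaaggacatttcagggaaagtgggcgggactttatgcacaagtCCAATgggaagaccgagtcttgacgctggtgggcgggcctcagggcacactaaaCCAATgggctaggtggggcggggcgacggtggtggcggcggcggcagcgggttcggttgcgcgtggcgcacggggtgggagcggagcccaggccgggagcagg
TIMM10, chr11:57530705-57531004, minus strand: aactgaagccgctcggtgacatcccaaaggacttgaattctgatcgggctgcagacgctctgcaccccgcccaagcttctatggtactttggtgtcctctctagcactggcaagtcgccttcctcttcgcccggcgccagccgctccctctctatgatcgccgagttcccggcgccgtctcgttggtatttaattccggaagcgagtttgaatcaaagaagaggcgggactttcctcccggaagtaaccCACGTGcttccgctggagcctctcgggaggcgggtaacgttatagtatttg
TIMM9, chr14:58427482-58427781, minus strand: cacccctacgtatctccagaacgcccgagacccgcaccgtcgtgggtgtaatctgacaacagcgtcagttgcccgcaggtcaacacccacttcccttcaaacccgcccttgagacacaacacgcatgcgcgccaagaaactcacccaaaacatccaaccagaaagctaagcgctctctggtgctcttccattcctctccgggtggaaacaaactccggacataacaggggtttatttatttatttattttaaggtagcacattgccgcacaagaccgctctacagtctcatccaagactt
In the HSPE1 window the nuclear respiratory factor 1 motif starts at position -47 and the E-box at -22, and no marked matches overlap in these 4 windows. TOMM40 had 5 CCAAT boxes and 1 nuclear respiratory factor 1 motif, TIMM10 had an E-box across its start, and TIMM9 had none of the 3 motifs.

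Across the 38 windows, the nuclear respiratory factor 1 motif was found in 10 (26.3%), against 5.73% of 34935 promoter windows of the same length. The median share of G and C in the 38 windows was 65.3%. The 34935 windows were not matched for it or for expression, and its part in the difference was not tested. HSPD1 and HSPE1 are both among the 10 through 1 site in their shared bases, and the same holds for their E-box. The motif was in 6 of 22 genes called lower below (TOMM34, TOMM40, CHCHD4, PAM16, HSPD1 and HSPE1) and in 4 of 15 not called (TOMM7, TOMM20, OXA1L and CLPX), which are similar shares. The E-box was found in 6 windows (15.8%, against 7.23%), among them HSPA9, TOMM20 and LONP1, and the CCAAT box in 13 (34.2%, against 34.6%). The E-box was in 4 of the 22 genes called lower and in 2 of the 15 not called. The CCAAT box was in 7 and 5 of them, again similar shares, and in TIMM44, which was called higher. The heat shock element was in 0 of the 38 windows (0.489% of all windows), and the ATF4 motif TGATGNAAT was in 1, that of PMPCB (0.996% of all windows). A match describes the letters of the window and does not show that a factor binds there.

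All libraries had FPKM values (fragments per kilobase of transcript, scaled to sequencing depth) that summed to 606197 to 655607, with 15021 to 15223 genes at 1 FPKM or more. SOX10, which marks the neural crest lineage, served as a check of the label. It stood at 193 and 181 FPKM with DMSO and at 275 and 271 FPKM with paroxetine. VIM stood at 1479 to 1864 FPKM and S100A1 at 3.76 to 6.06 FPKM. S100B was low, at 5.09 and 6.66 FPKM with DMSO and 1.89 and 2.70 FPKM with paroxetine. MITF stood at 5.36 to 7.73 FPKM, while the pigment genes PMEL, MLANA, TYR, TYRP1 and DCT were all below 1 FPKM. Of 16 markers of immune, epithelial, fibroblast and endothelial cells, CD68, KRT14 and PDGFRB reached 1 FPKM in a library and the other 13 did not. PTPRC was at 0.335 FPKM or less and EPCAM at 0.297 FPKM or less, and CDH1 was listed at 0. The summed immune markers stood at 25.5 and 22.2 FPKM with DMSO and at 51.8 and 57.2 FPKM with paroxetine, nearly all of it CD68, which is also a lysosomal protein of other cells. The epithelial sum stood at 4.13 and 6.06 and then at 1.02 and 1.03 FPKM, and the fibroblast sum at 4.00 and 3.62 and then at 6.78 and 5.00 FPKM. Their part in the results below was not tested.

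The import genes were well expressed and mostly lower after paroxetine. All 43 passed the filter of 1 FPKM in at least 2 libraries, by their levels in both groups. Library values ran from 3.21 FPKM (DNAJC15) to 370.1 FPKM (HSPD1), and in mean level the middle gene stood above 85.2% of the 15511 genes tested. With limma on log2(FPKM + 1), at an adjusted p under 0.05 over all tested genes, 24 fell, 1 rose and 18 were not called. Of all tested genes 38.6% were called, 20.5% lower and 18.1% higher, so that a share of 55.8% lower stands above the background and 2.33% higher below it. Calls are more frequent among well expressed genes: with a minimum of 5 FPKM the background was 28.0% lower and 23.2% higher, and 27 of the 43 genes were called lower and 1 higher. Neither background was matched to the level of the 43 genes, and the part of level in the difference was not tested. The median log2 change was -0.33, against -0.0047 over all tested genes. Without DMSO replicate 1 fewer of the 43 genes and fewer of all tested genes were called. The change was then below 0 in 36 of the 43. FPKM is scaled to sequencing depth, so it gives a gene's share of a library and not its amount per cell. In bulk samples a lower share in all cells and in some of the cells cannot be told apart.

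The groups did not overlap in 37 genes (86.0%, against 71.6% of all tested genes). Paroxetine values were the lower ones in 33 and the higher ones in 4, against 36.3% and 35.3% of all tested genes. The change was below 0 in 35 genes, and in 33 to 35 under the 3 other scalings of the libraries. Only 4 of the falls (TOMM40, TIMM10, DNAJC15 and PHB) reached 2-fold on the log2(FPKM + 1) scale, a scale that understates the change of genes with low values. At that size 4.41% of all tested genes were called lower and 3.69% higher, and 0 of the 43 were higher. Summed over all 43 genes, the level was 3462 and 3480 FPKM with DMSO and 2622 and 2560 FPKM with paroxetine. That is a change of -25.4%, while the sum of all genes in the table went from 655607 and 655004 to 606197 and 640029 FPKM.

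**Figure D1:**
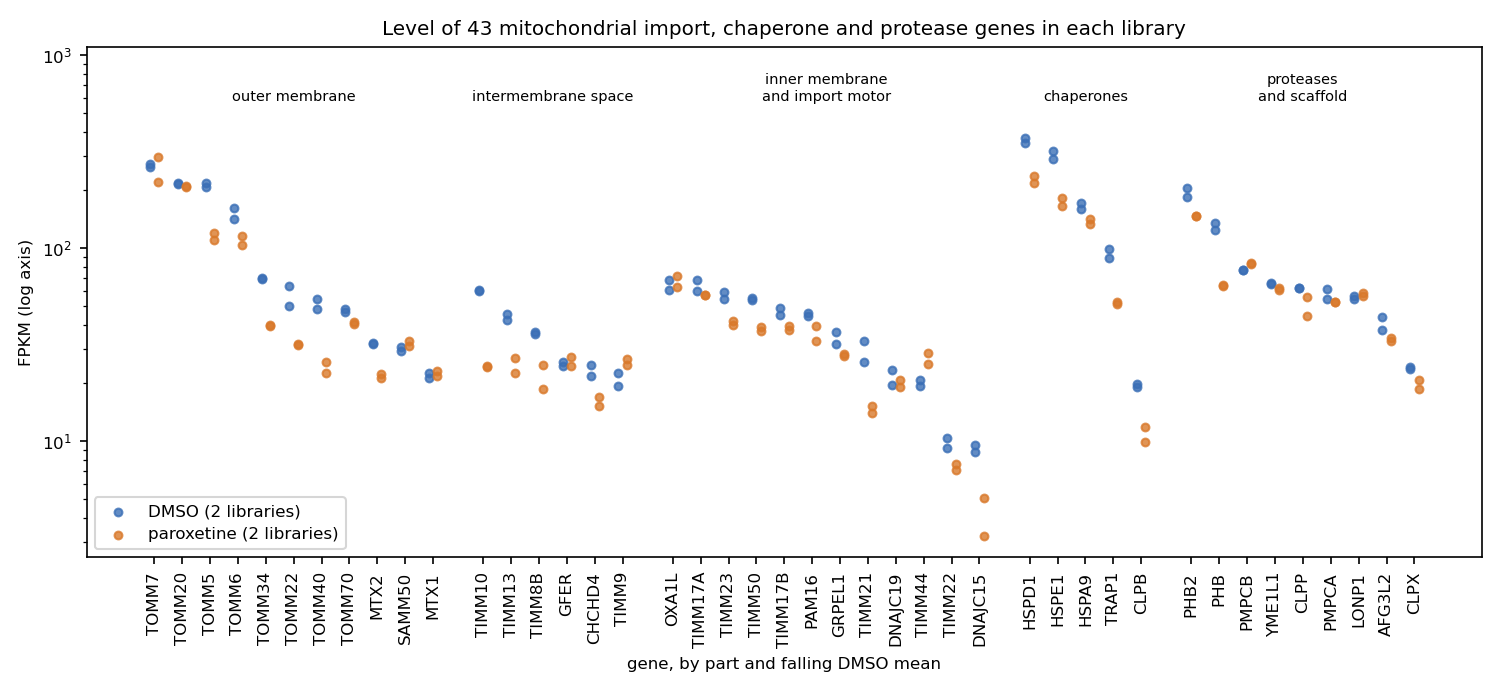
Level of each of the 43 genes in FPKM (log axis) in the 2 DMSO (blue) and 2 paroxetine (orange) libraries, by part. The paroxetine points lie below both DMSO points in 33 genes and above them in 4 (SAMM50, TIMM9, TIMM44 and PMPCB).

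Summed levels by part were lower in both paroxetine libraries in each of the 5 parts. The chaperones went from 943 ± 35.5 to 602 ± 1.76 FPKM (SD, n = 2), a change of -36.2%, and the genes of the intermembrane space from 209.6 ± 2.47 to 138 ± 0.902 FPKM, a change of -33.9%. The outer membrane changed by -21.9%, the proteases and their scaffold by -19.4% and the inner membrane by -16.9%. Differences between parts were not tested. HSPD1 and HSPE1 alone held 18.5% and 19.8% of the summed level with DMSO, and 15.3% and 15.6% with paroxetine.

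**Figure D2:**
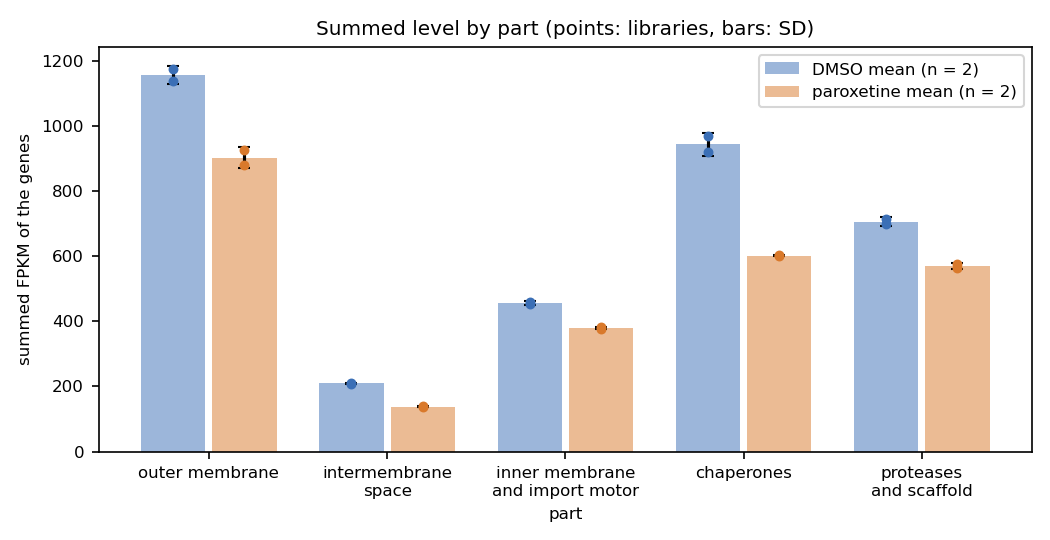
Summed FPKM of the genes of each part, with the mean (bar), the SD (error bar, n = 2) and each library (points). In every part both paroxetine libraries lie below both DMSO libraries, from 943 to 602 FPKM in the chaperones and from 456 to 379 FPKM in the inner membrane.

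In the outer membrane 7 of 11 genes fell (63.6%, against 20.5% of all tested genes), 0 rose and 4 were not called, with a median log2 change of -0.47. The pore gene TOMM40 (chromosome 19, 44890569 to 44903689) stood at 54.6 and 48.5 FPKM with DMSO and at 22.6 and 25.8 FPKM with paroxetine (51.5 ± 4.34 and 24.2 ± 2.22 FPKM, mean ± SD, n = 2). Both treated libraries lay far below the controls, at a log2 change of -1.06 ± 0.10 (SE; adjusted p = 0.00131). TOMM5, a small subunit that helps assemble the pore, stood at 217 and 206 FPKM and then at 109 and 120 FPKM (log2 change -0.88 ± 0.07, adjusted p = 0.000803). TOMM22, the receptor that also organises the complex, went from 63.8 and 50.3 to 31.8 and 31.45 FPKM (-0.82 ± 0.12, adjusted p = 0.0053). Its DMSO libraries were further apart than its paroxetine libraries, but the groups did not overlap. TOMM34, a cytosolic cochaperone of import, was even within groups, at 69.6 and 69.1 and then 39.4 and 39.7 FPKM (-0.80 ± 0.06, adjusted p = 0.000685).

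The other receptors of the outer membrane were closer to their control level. TOMM20, the main presequence receptor, stood at 215 and 217 FPKM and at 206 and 209.8 FPKM, a log2 change of -0.05 ± 0.05 (adjusted p = 0.428). TOMM70, the receptor for carrier proteins, went from 46.6 and 48.6 to 41.6 and 40.3 FPKM (-0.21 ± 0.06, adjusted p = 0.0436). That call was lost without any 1 of the libraries (adjusted p = 0.102 without DMSO replicate 1, 0.167 without DMSO replicate 2, 0.106 without paroxetine replicate 1 and 0.152 without paroxetine replicate 2). The small subunit TOMM7 had 264 and 271 FPKM with DMSO and 295 and 221 FPKM with paroxetine, values that lay on either side of the controls. Without paroxetine replicate 1 its change was -0.28 (adjusted p = 0.0449), against -0.07 ± 0.14 with all libraries. TOMM6, another small subunit, fell from 161 and 142 to 104 and 115 FPKM (adjusted p = 0.0114), a call lost without DMSO replicate 1 (adjusted p = 0.0638) and without paroxetine replicate 1 (0.0619).

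The genes of barrel insertion split. SAMM50, the core of the SAM complex, stood at 30.8 and 29.5 and then 31.1 and 33.1 FPKM (adjusted p = 0.39), and its partner MTX1 at 21.2 and 22.5 and then 23.1 and 21.9 FPKM (adjusted p = 0.722). SAMM50 shares 148 exon bases on the same strand with PNPLA3, which went from 4.51 to 12.1 FPKM on average. The part of PNPLA3 reads in the SAMM50 value was not tested. MTX2, which encodes the other metaxin, fell from 31.8 and 32.2 to 21.2 and 22.3 FPKM (-0.54 ± 0.07, adjusted p = 0.00374). MTX1 has an unprocessed copy, MTX1P1, at 15.8 and 17.6 FPKM with DMSO and 6.0 and 0.591 FPKM with paroxetine. How reads that match both were assigned is unknown, so the value of MTX1 is uncertain.

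In the intermembrane space 4 of 6 genes fell (66.7%, against 20.5% of all tested genes), 0 rose and 2 were not called (median -0.62). TIMM10 (chromosome 11, 57528463 to 57530803) encodes a small chaperone that guides membrane proteins across the aqueous space. It had the lowest log2 change of the 43 genes. Its level was 60.3 and 59.8 FPKM with DMSO and 24.4 and 24.3 FPKM with paroxetine (-1.27 ± 0.06, adjusted p = 0.000294), a gap far wider than the spread within groups. TIMM9, whose protein forms a ring with TIMM10, stood at 22.6 and 19.2 FPKM with DMSO and at 26.5 and 24.7 FPKM with paroxetine (0.28 ± 0.10, adjusted p = 0.0791). The groups of TIMM9 did not overlap, but the change did not pass the test. Exons of TIMM9 (chromosome 14, 58408494 to 58427614) share 223 bases with KIAA0586 on the opposite strand, which stood at 14.4 and 5.99 FPKM on average. The strand setting used when fragments were assigned was not given in the sources used here.

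TIMM8B and TIMM13, the other pair of small chaperones, were both called lower. TIMM13 went from 42.4 and 45.5 to 27.1 and 22.5 FPKM (-0.81 ± 0.10, adjusted p = 0.00368). TIMM13 shares 257 exon bases with LMNB2 on the same strand, which went from 62.5 to 24.1 FPKM, and the part of LMNB2 reads in the change was not tested. TIMM8B went from 36.8 and 35.9 to 18.6 and 24.8 FPKM (-0.73 ± 0.14, adjusted p = 0.012), with the paroxetine libraries further apart, and shares 351 exon bases with NKAPD1 on the opposite strand. Without DMSO replicate 1 or 2 its adjusted p was 0.0789 and 0.0722. CHCHD4 and GFER form the disulfide relay that traps small cysteine-rich proteins in this space. CHCHD4, the oxidoreductase, fell from 24.8 and 21.8 to 15.2 and 16.9 FPKM (-0.51 ± 0.10, adjusted p = 0.0152), and lost the call without DMSO replicate 1 (adjusted p = 0.0838) or paroxetine replicate 1 (0.0788). GFER, the sulfhydryl oxidase that reoxidises it, stood at 24.5 and 25.7 and then at 27.4 and 24.6 FPKM, with overlapping groups (adjusted p = 0.678).

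**Figure D3:**
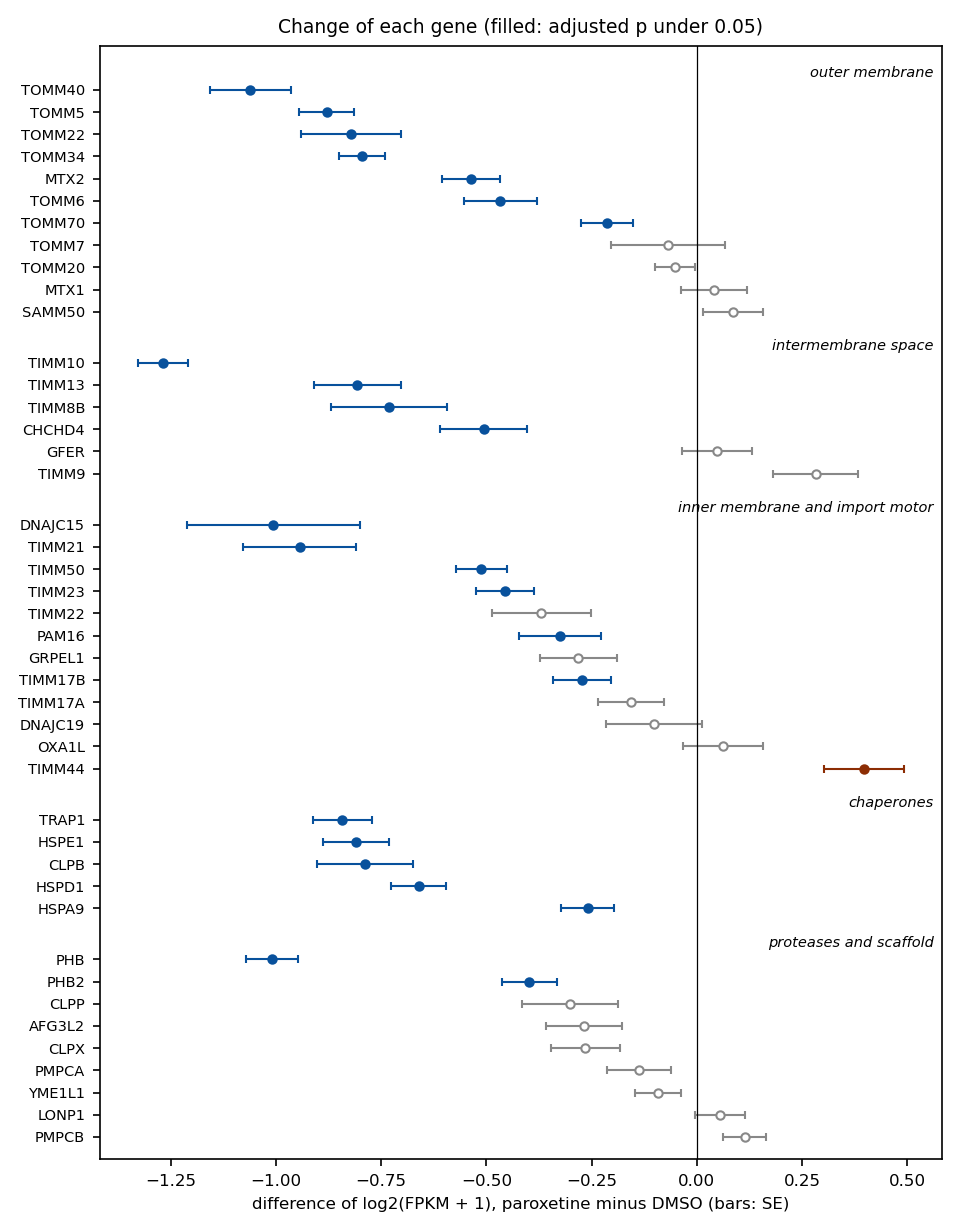
Difference of log2(FPKM + 1), paroxetine minus DMSO, with its SE for each of the 43 genes by part. Blue points were called lower, brown points higher and open grey points not called at an adjusted p under 0.05. Blue points make up all 5 of the chaperones, 7 of 11 outer membrane genes and 2 of 9 genes of the proteases and scaffold. Of all tested genes 20.5% were called lower, and differences between parts were not tested.

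In the inner membrane and its import motor 6 of 12 genes fell (50%, against 20.5% of all tested genes), 1 rose and 5 were not called (median -0.30). The channel gene TIMM23 went from 54.5 and 59.0 to 42.0 and 40.1 FPKM (-0.46 ± 0.07, adjusted p = 0.00601). TIMM23 has a near-identical copy elsewhere on the same chromosome, TIMM23B, at 5.59 and 6.90 and then 3.49 and 4.46 FPKM, and reads may be split between them. TIMM50, the receptor that hands presequences to the channel, went from 55.0 and 54.1 to 38.8 and 37.1 FPKM (-0.51 ± 0.06, adjusted p = 0.00278). TIMM21, which couples the translocases to each other and to respiratory chain assembly, went from 25.6 and 33.0 to 15.3 and 14.1 FPKM (-0.94 ± 0.13, adjusted p = 0.00502). In these genes the groups did not overlap. TIMM22, the carrier translocase, stood at 10.4 and 9.22 FPKM and at 7.13 and 7.59 FPKM, and did not pass the test (adjusted p = 0.0577). Exons of TIMM22 share 154 bases with ABR on the opposite strand, at 54.2 and then 64.3 FPKM on average. The part of ABR reads in the TIMM22 value was not tested.

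The paralogs of the channel and of its motor differed in their values. TIMM17A, whose protein is known to be degraded under stress, stood at 68.4 and 59.9 and then at 57.3 and 57.4 FPKM (-0.16 ± 0.08, adjusted p = 0.174). TIMM17B, whose exons share 77 bases with PQBP1 on the opposite strand, fell from 48.7 and 45.1 to 37.8 and 39.5 FPKM (-0.27 ± 0.07, adjusted p = 0.03). That call was lost without any 1 library, at adjusted p of 0.133 and 0.0633 without DMSO replicates 1 and 2 and 0.125 and 0.0804 without paroxetine replicates 1 and 2. DNAJC15 and DNAJC19 encode paralogous J-proteins, and DNAJC15 regulates the motor. DNAJC15 (chromosome 13, 43023203 to 43114224), the gene of lowest level among the 43, fell from 9.59 and 8.76 to 5.08 and 3.21 FPKM (-1.01 ± 0.20, adjusted p = 0.0153). Its adjusted p was 0.096 without DMSO replicate 1 and 0.077 without DMSO replicate 2. DNAJC19 stood at 23.5 and 19.4 and then at 20.7 and 19.0 FPKM, with overlapping groups (adjusted p = 0.518).

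TIMM44 was the only gene of the 43 that was called higher. TIMM44 (chromosome 19, 7926718 to 7943920) tethers mitochondrial HSP70 to the channel. It stood at 20.8 and 19.4 FPKM with DMSO and at 25.0 and 28.6 FPKM with paroxetine (0.40 ± 0.09, adjusted p = 0.0247). The call was lost without DMSO replicate 1 (adjusted p = 0.078), DMSO replicate 2 (0.119) or paroxetine replicate 2 (0.107). PAM16, which restrains the J-proteins of the motor, was called lower at the threshold, from 46.3 and 44.4 to 32.9 and 39.3 FPKM (adjusted p = 0.0494). It lost the call without DMSO replicate 1 (0.194), DMSO replicate 2 (0.143) or paroxetine replicate 1 (0.144). GRPEL1, the nucleotide exchange factor of HSPA9, stood at 36.9 and 31.7 and then at 27.7 and 28.3 FPKM (adjusted p = 0.0622), and passed the threshold without DMSO replicate 2 (adjusted p = 0.0488). OXA1L, the insertase for proteins made inside mitochondria, stood at 60.8 and 68.0 and then at 72.1 and 62.6 FPKM, with overlapping groups (adjusted p = 0.638).

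All 5 chaperone genes fell (against 20.5% of all tested genes), with a median log2 change of -0.79. HSPD1 (chromosome 2, 197486581 to 197516737), the HSP60 that forms the folding chamber of the matrix, had the highest level of the 43 genes with DMSO. It went from 350.2 and 370.1 to 238 and 218 FPKM (-0.66 ± 0.07, adjusted p = 0.00165). HSPE1 (chromosome 2, 197499994 to 197503457), the HSP10 that caps the chamber, went from 289 and 319.9 to 164 and 182 FPKM (-0.81 ± 0.08, adjusted p = 0.00159). These genes share the promoter region printed above, and their annotated exons share 281 bases on opposite strands, so reads in that stretch can belong to either. Their pseudogenes in the table, 17 of HSPD1 and 26 of HSPE1, summed to 0.86% and 4.44% of the parent's level.

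The remaining chaperones were lower by different amounts. TRAP1, the mitochondrial HSP90, went from 89.1 and 98.9 to 52.7 and 51.1 FPKM (-0.84 ± 0.07, adjusted p = 0.00108). CLPB, a disaggregase of the intermembrane space, went from 19.1 and 19.7 to 11.9 and 9.85 FPKM (-0.79 ± 0.11, adjusted p = 0.00519). In both the groups lay well apart. Exons of TRAP1 share 1531 bases with DNASE1 and those of CLPB 835 bases with AP000593.4, both on the opposite strand. HSPA9, the mitochondrial HSP70, changed less, from 171 and 159.9 to 134 and 142 FPKM (-0.26 ± 0.06, adjusted p = 0.025). Its call was lost without any 1 library, at adjusted p of 0.125 and 0.0633 without DMSO replicates 1 and 2 and 0.104 and 0.0542 without paroxetine replicates 1 and 2. After quantile normalization its change was -0.07 (adjusted p = 0.41).

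Among the proteases and their scaffold 2 of 9 genes fell (22.2%, close to the 20.5% of all tested genes), 0 rose and 7 were not called (median -0.26). In 7 of the 9 both paroxetine libraries were the lower ones, against 36.3% of all tested genes. The 2 that fell were the prohibitins, which form a ring in the inner membrane that holds the protease made with AFG3L2. PHB (chromosome 17, 49404049 to 49414905) went from 125 and 135 to 64.1 and 63.8 FPKM (-1.01 ± 0.06, adjusted p = 0.000531), and PHB2 from 184 and 204 to 147 and 146 FPKM (-0.40 ± 0.07, adjusted p = 0.00818). After quantile normalization the adjusted p of PHB2 was 0.0604. Exons of PHB share 963 bases with AC091180.3 on the opposite strand, at 24.5 and then 15.2 FPKM on average.

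The peptidases and proteases of this group were not called. LONP1, the main matrix protease, stood at 56.4 and 54.2 and then at 56.3 and 58.8 FPKM, with overlapping groups (0.06 ± 0.06, adjusted p = 0.502). CLPP, the peptidase of the ClpXP complex, stood at 62.0 and 61.8 and then at 56.1 and 44.7 FPKM (-0.30 ± 0.11, adjusted p = 0.0891). Its paroxetine libraries were far apart, and without paroxetine replicate 1 it passed the threshold (-0.46, adjusted p = 0.0235). CLPX, the unfoldase of that complex, stood at 23.5 and 24.1 and then at 18.7 and 20.6 FPKM (-0.26 ± 0.08, adjusted p = 0.055). AFG3L2 stood at 43.7 and 37.5 and then at 34.0 and 32.9 FPKM (adjusted p = 0.0688), and passed the threshold without DMSO replicate 2 (0.0491). Exons of AFG3L2 share 837 bases with TUBB6 on the opposite strand, at 121 and then 79.1 FPKM on average. YME1L1, the inner membrane protease that faces the intermembrane space, stood at 65.2 and 66.1 and then at 62.3 and 60.8 FPKM (adjusted p = 0.234). The processing peptidase subunits lay close to their controls. PMPCA stood at 61.7 and 54.5 and then at 52.5 and 52.7 FPKM (adjusted p = 0.215), and PMPCB at 76.6 and 77.3 and then at 84.1 and 82.7 FPKM (adjusted p = 0.138). With quantile normalization PMPCB was called higher (0.23, adjusted p = 0.0221). Exons of PMPCB share 628 bases with DNAJC2 on the opposite strand, at 26.2 and then 33.8 FPKM on average.

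Ratios of partner or paralog genes were compared within each library. With 2 libraries a group an exact permutation test cannot go below p = 0.333, so the ratios are given as values. TIMM9 relative to TIMM10 went from 0.374 and 0.322 to 1.09 and 1.01, so that genes at unequal levels with DMSO were nearly level with paroxetine. PHB relative to PHB2 went from 0.678 and 0.664 to 0.435 and 0.438, and DNAJC15 relative to DNAJC19 from 0.409 and 0.450 to 0.246 and 0.169. In these pairs the groups did not overlap. Smaller shifts without overlap were seen for PMPCA relative to PMPCB, from 0.806 and 0.704 to 0.625 and 0.638, and TIMM17A relative to TIMM17B, from 1.404 and 1.33 to 1.52 and 1.45. HSPD1 relative to HSPE1 stood at 1.21 and 1.16 and then at 1.45 and 1.19, and the groups overlapped, as they did for TIMM8B relative to TIMM13 and CLPP relative to CLPX.

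**Figure D4:**
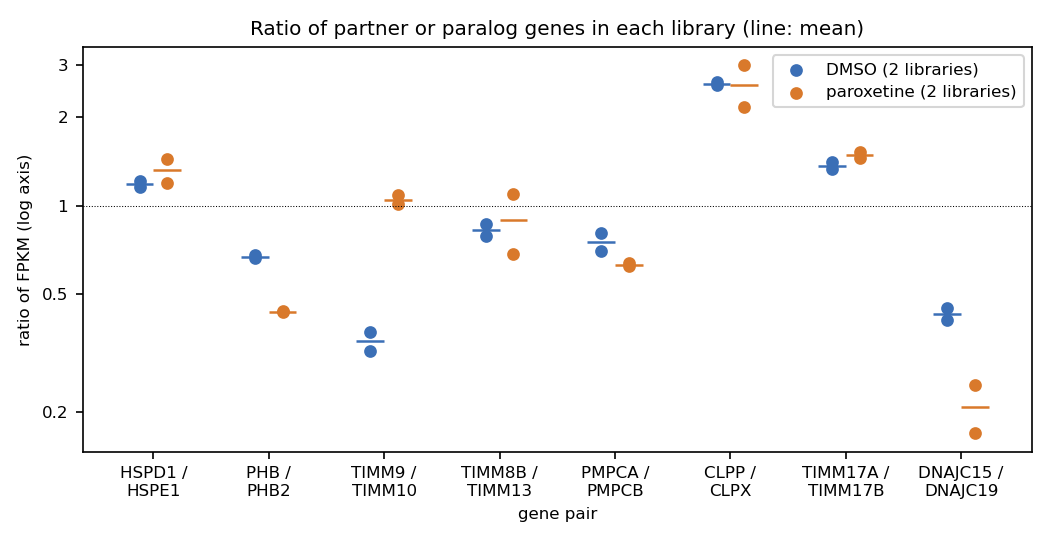
Ratio of FPKM of partner or paralog genes in each library (points, log axis) with the group mean (line). The ratio of TIMM9 to TIMM10 moved from 0.348 to 1.05 on average and that of PHB to PHB2 from 0.671 to 0.436, while that of HSPD1 to HSPE1 overlapped between groups.

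Of 47 further genes of the pathway, listed by role, 46 passed the filter; TOMM20L was listed at 0 in all libraries. With limma 17 of the 46 were lower, 7 higher and 22 not called (37% lower and 15.2% higher, against the same background of 20.5% and 18.1%), with a median log2 change of -0.22. DDIT3 is 1 of the 7, and its value and a list of ATF4 targets were known before these genes were listed. Without any 1 library fewer of the 46 genes were called, and so were fewer of all tested genes. Among the other translocases and insertases 6 of 12 were lower and 2 higher. TIMM8A, a paralog of TIMM8B, went from 21.1 and 22.9 to 10.5 and 11.2 FPKM (-0.96 ± 0.09, adjusted p = 0.00157). BCS1L, which inserts the Rieske protein, went from 19.7 and 20.2 to 13.2 and 12.3 FPKM (adjusted p = 0.00481). COX18, an insertase, went from 9.80 and 8.92 to 5.89 and 6.13 FPKM (adjusted p = 0.0164), and lost the call without any 1 library (0.0617 to 0.0935). TIMM10B encodes a small chaperone of the carrier translocase. Its exons share 33 bases with ARFIP2 on the opposite strand, at 30.3 and then 66.2 FPKM on average. TIMM10B was called higher, from 17.2 and 13.4 to 21.7 and 22.4 FPKM (0.51 ± 0.13, adjusted p = 0.0308). That call was lost without DMSO replicate 2 (0.0832), paroxetine replicate 1 (0.111) or paroxetine replicate 2 (0.13). TIMMDC1, an assembly factor of respiratory complex I, was the other one called higher, at 56.8 and 60.3 and then 68.1 and 67.3 FPKM (adjusted p = 0.0429), and lost the call without any 1 library (0.0795 to 0.167).

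Of 6 further chaperone genes 2 were lower (33.3%, against 20.5% of all tested genes) and 0 higher. The lower ones were DNLZ, which keeps HSPA9 soluble (3.16 and 3.11 to 1.70 and 1.73 FPKM, adjusted p = 0.0372), and DNAJC11 (27.5 and 28.1 to 22.4 and 23.3 FPKM, adjusted p = 0.0309). Both lost the call without any 1 library. Exons of DNLZ share 126 bases with GPSM1 on the opposite strand, at 20.7 and then 22.2 FPKM on average. Those of DNAJC11 share 1419 bases with THAP3 on the opposite strand, at 21.6 and then 26.3 FPKM. Of 12 further proteases and peptidases 3 were lower (25%) and 2 higher (16.7%), shares close to those of all tested genes. OMA1, the stress-activated protease that cleaves OPA1 and DELE1, went from 23.7 and 28.2 to 15.8 and 13.7 FPKM (-0.77 ± 0.12, adjusted p = 0.00647). MIPEP, which trims a second piece from some presequences, went from 10.4 and 8.68 to 5.63 and 4.81 FPKM (adjusted p = 0.013). MIPEP lost the call without DMSO replicate 1 (0.0803) or paroxetine replicate 2 (0.0667). LACTB, a filament-forming protease of the intermembrane space, was higher, at 7.42 and 8.74 and then 16.1 and 15.9 FPKM (0.91 ± 0.11, adjusted p = 0.00319). HTRA2, a serine protease of that space, was the other one called higher, at 31.7 and 32.1 and then 38.3 and 37.5 FPKM (adjusted p = 0.0303). It lost the call without any 1 library. Its exons share 483 bases with AUP1 and 625 with LOXL3, both on the opposite strand. AUP1 stood at 83.7 and then 96.8 FPKM on average, and LOXL3 at 56.5 and then 34.4 FPKM. NLN, a peptidase, went from 11.4 and 12.7 to 9.41 and 7.66 FPKM (adjusted p = 0.047), and lost the call without any 1 library (0.0577 to 0.199).

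Of 10 genes of cristae and scaffolds 6 were lower (60%, against 20.5% of all tested genes) and 1 higher. MICOS10, a core subunit of the complex that shapes crista junctions, went from 89.0 and 72.8 to 33.5 and 42.7 FPKM (-1.07 ± 0.15, adjusted p = 0.00451). Its exons share 253 bases with CAPZB on the opposite strand and 131 with NBL1 on the same strand. CHCHD2, a small protein of the intermembrane space, went from 476 and 487 to 291 and 334 FPKM (-0.62 ± 0.08, adjusted p = 0.00332). Its paralog CHCHD10 was higher, from 7.22 and 5.06 to 14.2 and 13.1 FPKM (1.06 ± 0.17, adjusted p = 0.00768), a call lost without paroxetine replicate 1 (0.0565). APOO, another subunit of the crista complex, went from 24.2 and 27.1 to 15.3 and 17.6 FPKM (adjusted p = 0.00941), and lost the call without DMSO replicate 2 (0.0645) or paroxetine replicate 1 (0.0515). Of 6 genes listed for stress signals from mitochondria 2 (ATF4 and DDIT3) were higher and 0 lower. That is 33.3% higher, against 18.1% of all tested genes, with the DDIT3 value known before the list was made. Whether the signal arose in mitochondria was not tested. ATF4, which directs transcription in the integrated stress response, stood at 239 and 216 and then at 443 and 448 FPKM (0.97 ± 0.06, adjusted p = 0.000636), beside DDIT3 (12.3 and 14.7 to 133 and 128 FPKM). ATF5, a factor known to act in the mitochondrial unfolded protein response, stood at 11.7 and 11.3 and then at 8.48 and 11.6 FPKM, with overlapping groups (adjusted p = 0.389). DELE1, which relays mitochondrial damage to the kinase encoded by EIF2AK1, stood at 48.5 and 46.4 and then at 51.1 and 46.3 FPKM (adjusted p = 0.728). EIF2AK1 stood at 40.3 and 42.8 and then at 36.6 and 39.8 FPKM (adjusted p = 0.255). ATAD1, the last of the 6, stood at 35.5 and 36.7 and then at 41.5 and 41.1 FPKM (adjusted p = 0.0595).

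**Figure D5:**
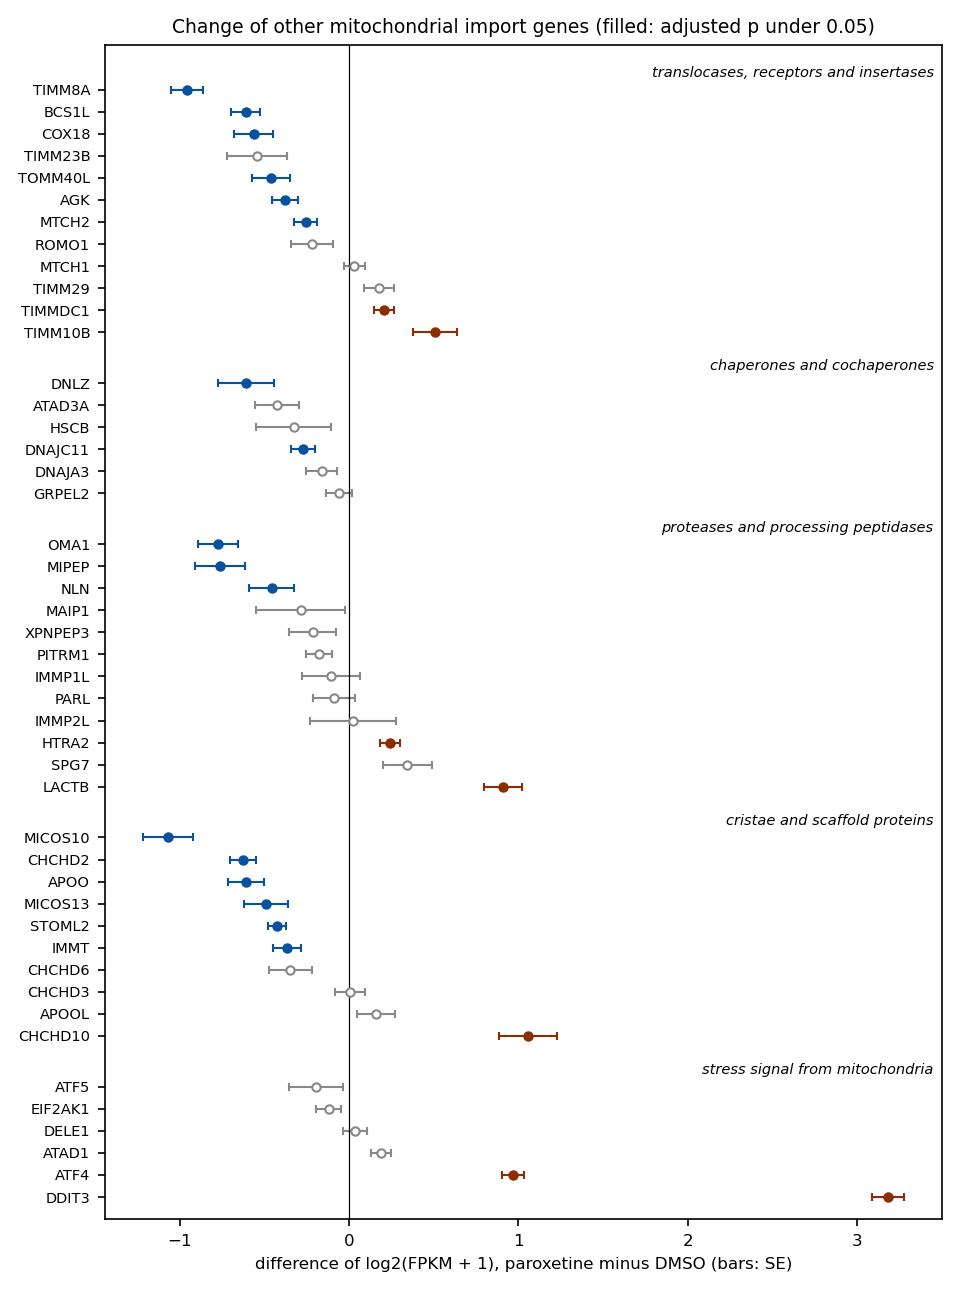
Difference of log2(FPKM + 1), paroxetine minus DMSO, with its SE for the 46 further genes that passed the filter, by role. Blue points were called lower (17), brown points higher (7) and open grey points not called (22).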

How the data were processed

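RNA sequencing of A375 cells was deposited as 1 table of FPKM values that the authors computed; per the submitters' processing notes the tools were CASAVA 1.4, HISAT2 2.1.0 and Cufflinks 2.2.1 on hg38. Their options, annotation, strand setting and numbers of reads were not given in the sources used here, so depth and counting error are unknown. The 4 FPKM columns were matched to the samples by name, and 12 other per-sample columns were not used.

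The 15511 genes with 2 or more libraries at or above 1 FPKM were compared on log2(FPKM + 1) in limma 3.58.1 (R 4.3.3) with the mean-variance trend, in a two-sided moderated test with Benjamini-Hochberg adjustment, after a check on simulated data. The members and gene lists were chosen with earlier results of these data known. Values in every library are given for up to 4 called genes per part with the largest change, for genes that moved against their part and for fixed partner pairs; the other members were added after their values were seen. Positions and overlapping exons came from GENCODE release 29 (GRCh38). Opposite-strand exons of an expressed gene overlap 18 of the 43 genes, and same-strand exons 4. Replicate numbers were not treated as pairs.

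Other settings tried were scaling by a trimmed mean (cutting 30% by log ratio, 5% by mean), quantile normalization, rescaling without mitochondrially encoded and abundant RNAs, no filter, no trend, log2(FPKM + 0.1), a minimum of 5 FPKM, a replicate block, and each library left out.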

Additional observations from a re-analysis of the deposited data

How the results depend on the processing

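Of the 24 falls, 15 kept their call under all 12 alternatives: TOMM5, TOMM22, TOMM34, TOMM40, MTX2, TIMM10, TIMM13, TIMM21, TIMM23, TIMM50, HSPD1, HSPE1, TRAP1, CLPB and PHB. The number of genes called higher (1) was 2 with quantile normalization, 0 without the trend and 0 without a filter. In these fits 19.3%, 16.1% and 7.34% of all tested genes were called higher. With a library left out 16 to 21 of the 43 genes and 10 to 14 of the further genes were called. The median log2 change (-0.33) was -0.24 with quantile normalization, -0.27 after rescaling without mitochondrially encoded and abundant RNAs, and -0.39 to -0.30 with a library left out. In the replicate block fit 21 genes were lower (48.8%) and 1 higher, against 18.6% lower and 16.1% higher of all tested genes. The deviations of same-numbered libraries correlated at r = -0.0425, so the numbers were not taken as pairs. In none of the 12 alternatives did a called gene change direction. The cause of these differences was not tested.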
